A study of Mus musculus with 6 samples.

Results

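The expression of 10 genes of the inhibin, activin, follistatin and anti-Müllerian hormone (AMH) system was followed in primary mouse Sertoli cell cultures. They were Inha, Inhba, Inhbb, Fst, Fstl3, Amh, Amhr2, Acvr1b, Acvr2a and Tgfbr3. These members were taken by gene symbol, and each matched 1 Ensembl identifier, so that 10 of the 29275 genes in the files are described. Sertoli cells line the seminiferous tubule and support the developing germ cells. RNA sequencing was run on 3 libraries from mice with a conditional deletion of Arhgef15 in Sertoli cells (labelled Arhgef15 cKO) and on 3 libraries from wild-type mice (WT). Arhgef15 encodes a guanine nucleotide exchange factor, and the study asked which transcripts differ when it is deleted. All 6 cultures were grown without further treatment in medium with serum and EGF. The sources used here do not give the Cre driver, the strain, the age of the mice or any pooling of animals, so a p-value here reflects only how these libraries spread.

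Inhibins and activins are dimers built from shared subunits. An alpha subunit (from Inha) joined to a beta subunit (from Inhba or Inhbb) gives inhibin, which holds back the release of follicle-stimulating hormone from the pituitary, and inhibin B from Sertoli cells is the main circulating form in males. Pairs of beta subunits give activins, which signal through serine/threonine kinase receptors and SMAD proteins and are trapped by follistatins. AMH, another member of the TGF-beta family, is made by immature Sertoli cells, causes the Müllerian duct to regress in the male fetus, and declines in Sertoli cells at puberty.

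Values were read as FPKM, fragments scaled to gene length and library depth, so levels can be compared between genes. The step between neighbouring low values put the depth at 16790000 to 20320000 fragments per library. Arhgef15 was listed at 0.501, 0.322 and 0.338 FPKM in cKO replicates 1, 2 and 3 and at 0.123, 0.0237 and 0.349 FPKM in WT replicates 1, 2 and 3. The targeted gene was therefore not lower in the libraries labelled cKO, and each direction given here is between labels. Which exons were deleted is not stated in the sources used. Among the Sertoli cell markers, 11 of 13 tested genes had a higher cKO mean, with sums of 741.8 to 1028 FPKM in cKO libraries and of 332.0, 284.7 and 1042 FPKM in WT replicates 1, 2 and 3. Fshr, the receptor for follicle-stimulating hormone, was listed at 0.721, 0.202 and 0.337 FPKM in the cKO libraries and at 0, 0 and 1.42 FPKM in the WT libraries, so this Sertoli marker was near absent. WT replicate 3 stood apart from its group. Its values correlated across genes at 0.860 and 0.898 with WT replicates 1 and 2, against 0.947, 0.929 and 0.921 with cKO replicates 1, 2 and 3, and WT replicates 1 and 2 correlated at 0.962 with each other. Each member is therefore given with and without this library where that changes its call.

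None of the 10 genes passed the test between genotypes. In limma on log2(FPKM + 1), 2 of 12284 tested genes (0.0163%) had an adjusted p under 0.05, both lower in cKO, and 0 of the 9 tested members were among them. At an unadjusted p under 0.05 there were 0 of these 9 members, against 6.81% of all tested genes. Of the 10 members, 8 had a higher cKO mean and Inhbb and Tgfbr3 had a lower one. The median log2 difference was 0.27 over the 10 members, 0.21 over the 9 of them that were tested and 0.08 over all tested genes. A higher cKO mean was seen in 59.8% of all tested genes, which is the background for the members' count. Amh lay under the filter of 1 FPKM in at least 3 libraries, and its values come from a fit of that model to all 29275 genes.

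By mean level, the beta subunit genes, the co-receptor gene Tgfbr3 and the follistatin genes Fstl3 and Fst stood at the top and Amh at the bottom. Over all 6 libraries the means were 69.9 ± 21.0 FPKM for Inhba, 37.3 ± 9.63 for Tgfbr3, 37.2 ± 31.5 for Inhbb, 33.3 ± 15.6 for Fstl3 and 21.2 ± 5.57 for Fst (SD, n = 6). Acvr1b followed at 13.8 ± 7.82 FPKM, Inha at 12.9 ± 4.88, Amhr2 at 6.84 ± 1.67, Acvr2a at 2.66 ± 0.681 and Amh at 0.599 ± 0.351. Inhba was above Tgfbr3 in 6 of 6 libraries, while Tgfbr3 was above Inhbb in 4 and Inhbb above Fstl3 in 2, so the genes from Tgfbr3 to Fstl3 have no fixed order. Fst was above Acvr1b in 6 of 6 libraries, but Acvr1b was above Inha in only 1, so these 2 means reverse the usual order within a library. From Inha down through Amhr2 and Acvr2a to Amh, each gene was above the next in 6 of 6 libraries. Inhba ranked within the top 5.00% of all genes in every library, and Amh between 42.0% and 54.7% from the top.

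**Figure D1:**
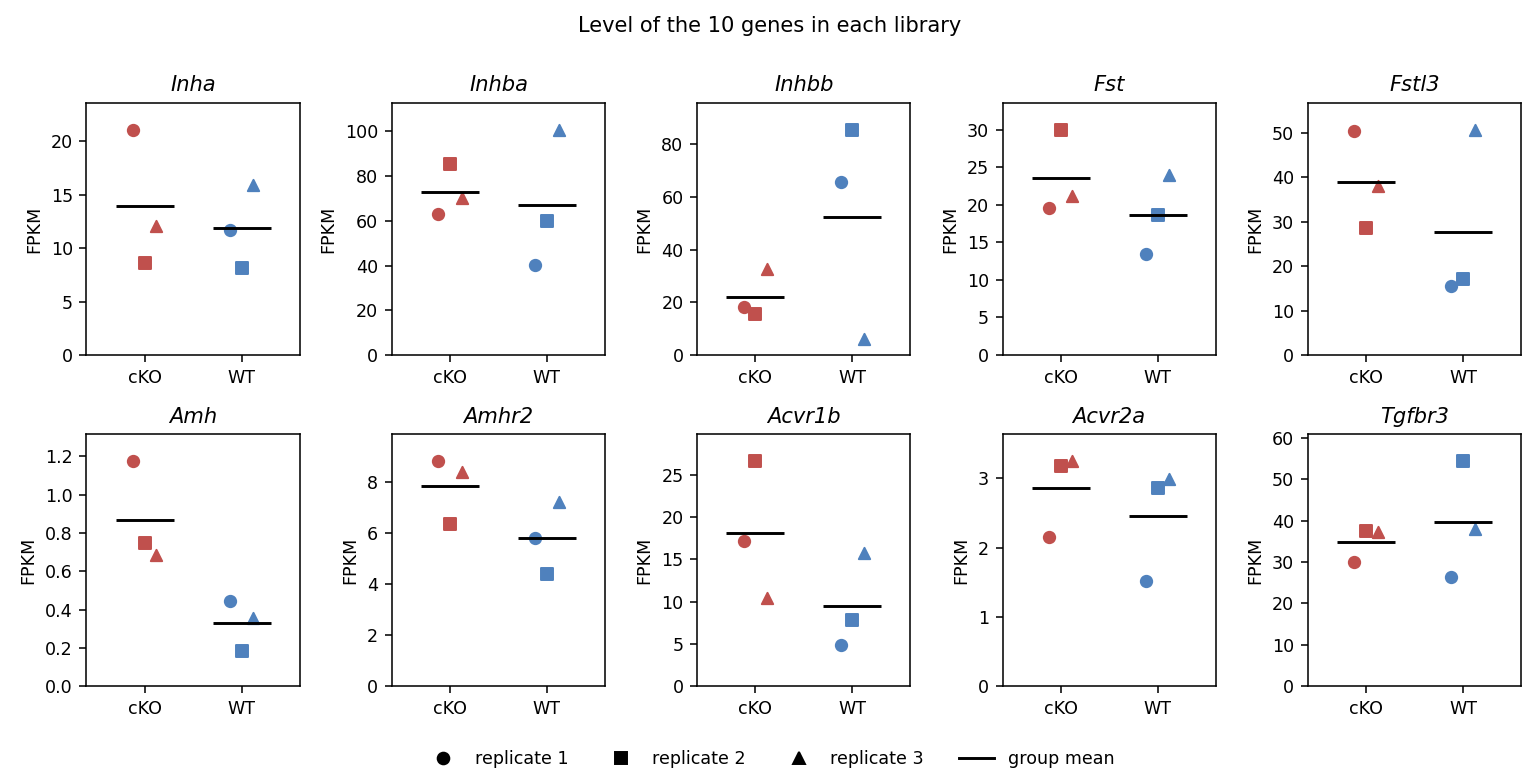
FPKM of each of the 10 genes in the 3 cKO and 3 WT libraries, with symbols for the replicate number and a line at the group mean. Amh is the one gene whose cKO points, 0.685 to 1.17 FPKM, all lie above the WT points, 0.184 to 0.447 FPKM, and Inhbb has the widest spread, with WT replicate 3 lowest at 6.04 FPKM.

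Inha, the alpha subunit that turns a beta subunit into an inhibin, had 21.1, 8.60 and 12.1 FPKM in cKO replicates 1, 2 and 3 and 11.7, 8.10 and 15.9 FPKM in WT replicates 1, 2 and 3. Replicate 1 was highest among the cKO libraries and replicate 3 among the WT libraries, and the groups overlapped throughout. The log2 difference was 0.17 with an SE of 0.36 and a 95% interval from -0.68 to 1.02 (limma, adjusted p = 0.948). It was -0.16 without cKO replicate 1 and -0.06 without WT replicate 2, so even its sign rested on single libraries.

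Inhba, the beta A subunit of activin A, was the most abundant member, with 62.9, 85.4 and 70.4 FPKM in cKO libraries and 40.3, 59.7 and 100.6 FPKM in WT libraries. The WT libraries held both the lowest and the highest value. The cKO minus WT difference was 0.21 (log2) with an SE of 0.34 (95% interval -0.57 to 0.99, limma, adjusted p = 0.925). It was 0.55 without WT replicate 3 and -0.10 without WT replicate 1, and neither passed (adjusted p = 0.235 and 0.987).

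Inhbb, the beta B subunit of inhibin B and activin B, varied most, by 14.1-fold between its highest and lowest library. It was listed at 18.1, 15.4 and 32.6 FPKM in cKO libraries and at 65.7, 85.4 and 6.04 FPKM in WT replicates 1, 2 and 3. WT replicates 1 and 2 were the highest of all 6 libraries and WT replicate 3 was the lowest, so the cKO values lay between them. Between genotypes the log2 difference was -0.65 with an SE of 0.89 (95% interval -2.72 to 1.42, limma, adjusted p = 0.907). Without WT replicate 3, it was -1.79 with an SE of 0.33 and an adjusted p of 0.0356. Inhbb was then the 1 member past the threshold, where 478 genes (3.89%) passed, 174 of them (1.42%) lower in cKO. The difference was -0.17 without WT replicate 1 and 0.02 without WT replicate 2 (adjusted p = 0.997 and 0.999).

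Summed markers of other testis cells also differed between libraries, in part with Inhbb and in part against it. The 11 macrophage and leukocyte markers summed to 283.8, 191.7 and 194.8 FPKM in cKO libraries and to 1133, 946.5 and 275.0 FPKM in WT replicates 1, 2 and 3, and 9 of 10 tested ones had a lower cKO mean. In WT replicate 3, where Inhbb was lowest, this sum was above those of cKO replicates 2 and 3. The 6 peritubular myoid markers summed to 672.7, 802.6 and 1263 FPKM in cKO libraries and to 3050, 2399 and 506.1 FPKM in WT libraries, with Acta2, a smooth muscle actin, making up most of each sum and 4 of 6 genes lower in cKO. The myoid marker Myh11 was instead highest in cKO replicate 3, at 30.0 FPKM, with 4.91 and 7.21 FPKM in WT replicates 1 and 2. Des and Cnn1 were also highest in cKO replicate 3. None of these 2 lists had a marker at 0. In the fibroblast list, Tcf21, a stromal transcription factor named after its values were seen, was listed at 8.92, 8.39 and 27.4 FPKM in cKO libraries and at 58.4, 78.2 and 5.49 FPKM in WT libraries, the same high and low libraries as for Inhbb. Dcn, a matrix proteoglycan of the same list, was at 35.8, 52.8 and 41.9 FPKM in cKO libraries and at 13.9, 24.0 and 94.0 FPKM in WT libraries, so that it was lowest in the libraries with most Inhbb. The whole fibroblast list of 7 genes summed to 592.2, 555.6 and 913.3 FPKM in cKO and to 741.5, 1052 and 496.6 FPKM in WT libraries, with 5 of 7 means lower in cKO and none at 0. The sum of the 6 endothelial markers ran against Inhbb, with 92.0, 60.0 and 53.4 FPKM in cKO libraries and 35.4, 30.7 and 57.7 FPKM in WT libraries. So did the sum of the 6 spermatogonia and spermatocyte markers (Stra8 at 0 in at least 1 library). It was 181.0, 96.5 and 117.6 FPKM in cKO libraries and 41.7, 28.9 and 240.9 FPKM in WT libraries. Most of each sum was Uchl1, at 137.7, 94.0 and 110.7 FPKM in cKO and 40.5, 24.9 and 173.9 FPKM in WT libraries. For both sums WT replicates 1 and 2 were the lowest of all libraries, as they were for Stra8. The other markers of this list differed. Ddx4 had 9.35, 0.474 and 1.07 FPKM in cKO and 0.319, 1.89 and 10.1 FPKM in WT libraries. Its WT replicate 2 thus lay above cKO replicates 2 and 3. The same held for Sycp3, at 0.892 FPKM in WT replicate 2 against 0.471 and 0.787 FPKM. Dazl in WT replicate 2 (0.966 FPKM) and Zbtb16 in WT replicate 1 (0.283 FPKM) lay above cKO replicate 2 (0.920 and 0.237 FPKM). The 7 Leydig cell markers (Cyp17a1 at 0 in at least 1 library) summed to 241.5, 172.0 and 142.5 FPKM in cKO libraries and to 362.2, 197.4 and 224.2 FPKM in WT libraries. Within this list, 2 genes named after their values were seen went opposite ways. Hsd3b1 was at 18.7, 11.6 and 11.6 FPKM in cKO and 139.4, 79.8 and 8.99 FPKM in WT libraries, highest and lowest where Inhbb was. Star was at 77.0, 55.5 and 58.6 FPKM in cKO and 29.7, 22.8 and 94.2 FPKM in WT libraries. The 7 spermatid markers (Acrv1 likewise at 0) summed to 247.1, 52.9 and 14.3 FPKM in cKO libraries and to 131.5, 56.0 and 149.0 FPKM in WT libraries. The part of these cells in the Inhbb values was not tested. In whole cultures, fewer cells of a type and less RNA per cell cannot be told apart.

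**Figure D2:**
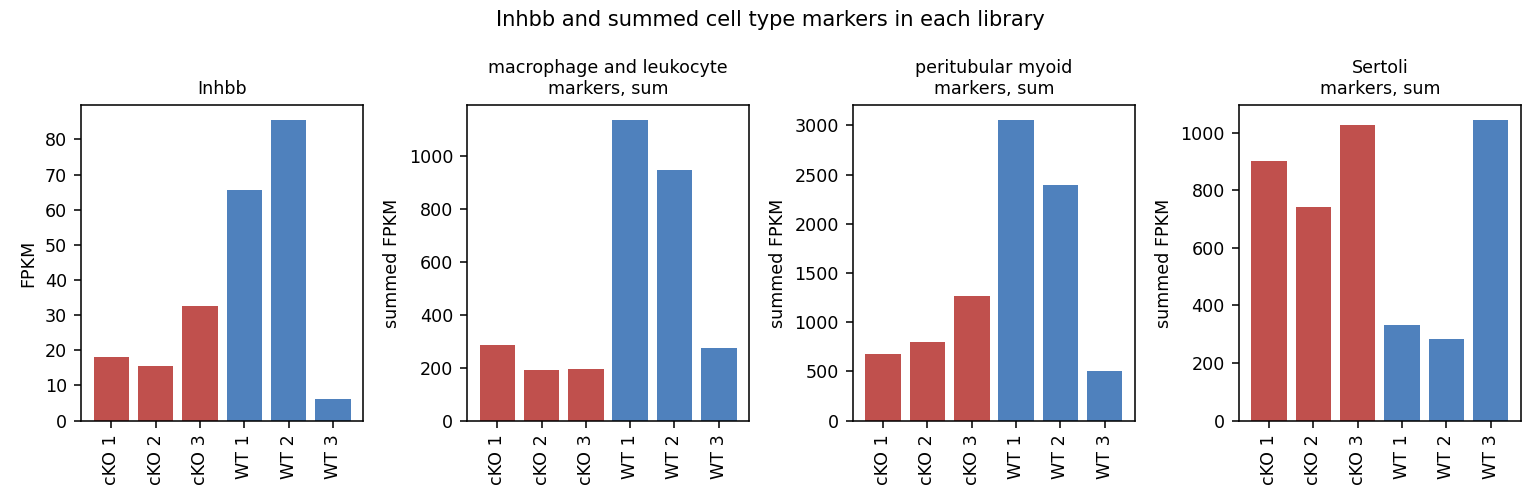
Inhbb in FPKM and the summed FPKM of macrophage and leukocyte, peritubular myoid and Sertoli markers in each library, cKO left and WT right. Inhbb, macrophage and myoid sums are highest in WT replicates 1 and 2, where the Sertoli sum is lowest, at 332.0 and 284.7 FPKM. Not every marker follows its sum. The myoid markers Myh11, Des and Cnn1 are highest in cKO replicate 3, and the Sertoli markers Gata4 and Sox8 in WT replicate 1.

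The beta subunit genes differ in the sequence around their start sites, shown here because their levels diverged between libraries. Both windows run from 250 bases before to 50 bases after the start in RefSeq, build GRCm38.p6. Inhba lies at chr13:16011601-16011900 on the plus strand and Inhbb at chr1:119422199-119422498 on the minus strand. These coordinates belong to the sequence table only, and no expression value was read by position. Capitals mark the TATA box letters TATAAA.
Inhba: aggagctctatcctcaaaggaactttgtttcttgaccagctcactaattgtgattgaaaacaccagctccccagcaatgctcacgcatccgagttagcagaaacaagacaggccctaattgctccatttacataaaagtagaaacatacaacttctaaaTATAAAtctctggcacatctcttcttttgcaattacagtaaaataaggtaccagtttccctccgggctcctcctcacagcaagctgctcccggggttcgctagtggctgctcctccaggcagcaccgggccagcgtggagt
Inhbb: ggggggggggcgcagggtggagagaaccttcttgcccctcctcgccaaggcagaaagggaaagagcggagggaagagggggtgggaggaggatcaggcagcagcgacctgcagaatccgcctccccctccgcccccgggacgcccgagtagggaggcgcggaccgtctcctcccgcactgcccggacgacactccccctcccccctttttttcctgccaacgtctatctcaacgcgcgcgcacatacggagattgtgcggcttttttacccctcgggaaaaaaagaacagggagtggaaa
The Inhbb window held 64.3% G and C, more than 80.4% of the 32851 mouse windows of the same kind, and the Inhba window 47.7%, against a median of 52.7%. TATAAA stood in the Inhba window, 91 bases before the start, and on either strand in 13.6% of all windows. No window was available for Fst, Amh and Tgfbr3. Among the other member windows only that of Fstl3 held TATAAA, on the opposite strand and 29 bases before the start. Whether either match acts as a TATA box was not tested. Further motifs were searched on both strands in the windows of the 7 members that had one. The half-site of the cAMP response element, spelled TGACG, occurred in 20.8% of all windows. The half-site of NR5A receptors, spelled AAGGNCA, occurred in 20.3% of them. The AP-1 site, spelled TGANTCA, occurred in 7.81%. The GATA site, spelled AGATAA, occurred in 11.2%. None of these 4 was in the Inhba or Inhbb window, and no match says only that these letters are not in the window.

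Follistatins bind activin outside the cell and keep it from its receptors. Fst, the classical follistatin gene, had 19.6, 30.0 and 21.2 FPKM in cKO libraries and 13.4, 18.7 and 24.1 FPKM in WT libraries. The groups overlapped, with cKO replicate 2 highest and WT replicate 1 lowest. The genotypes differed by 0.33 (log2) with an SE of 0.27 (95% interval -0.30 to 0.97, limma, adjusted p = 0.861). With 1 library left out it lay between 0.13, without WT replicate 1, and 0.53, without WT replicate 3, and did not pass in any case.

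Fstl3, a follistatin-like activin antagonist, had 50.3, 28.5 and 37.9 FPKM in cKO libraries and 15.5, 17.0 and 50.6 FPKM in WT libraries. WT replicates 1 and 2 lay below all cKO libraries, and WT replicate 3 was the highest of all 6. On the log2 scale the difference was 0.65 with an SE of 0.45 (95% interval -0.41 to 1.71, limma, adjusted p = 0.829). Without WT replicate 3 it was 1.18, still short of the threshold (adjusted p = 0.0585), and it was 0.35 without WT replicate 1 and 0.42 without WT replicate 2. In the reference annotation Fstl3 shares 1157 exonic bases with Prss57 on the opposite strand, which was listed at no more than 0.0375 FPKM in any library.

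The level of Fst followed that of Inhba more closely than those of Inha, Inhbb and Fstl3 did. Within a library, Fst stood at 0.312, 0.351 and 0.302 times the FPKM of Inhba in cKO replicates 1, 2 and 3 and at 0.333, 0.313 and 0.239 times in WT replicates 1, 2 and 3. This ratio spanned 1.47-fold, less than the 2.50-fold span of Inhba itself. The Fstl3 to Inhba ratio spanned 2.81-fold, from 0.333 to 0.800 in cKO and from 0.285 to 0.503 in WT libraries. The Inha to Inhba ratio spanned 3.32-fold, from 0.101 to 0.335 in cKO and from 0.136 to 0.290 in WT libraries, so the alpha subunit gene was below the beta A gene in 6 of 6 libraries. The Inhbb to Inhba ratio spanned 27.2-fold. Inhbb was at 0.287, 0.181 and 0.463 times Inhba in cKO libraries and at 1.63, 1.43 and 0.0600 times in WT libraries, so that the beta B gene exceeded the beta A gene in WT replicates 1 and 2 and in no other library. On the log2 scale the cKO minus WT difference was -0.04 for Inha, -0.85 for Inhbb, 0.14 for Fst and 0.46 for Fstl3, each relative to Inhba. Single libraries moved these differences. With 1 library left out, the Inhbb difference ran from -2.40 without WT replicate 3 to -0.02 without WT replicate 1. That of Inha ran from -0.48 to 0.38 and that of Fst from -0.01 to 0.23, so both changed sign, and that of Fstl3 ran from 0.16 to 0.79. The groups overlapped for all 4 ratios, which were not tested.

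**Figure D3:**
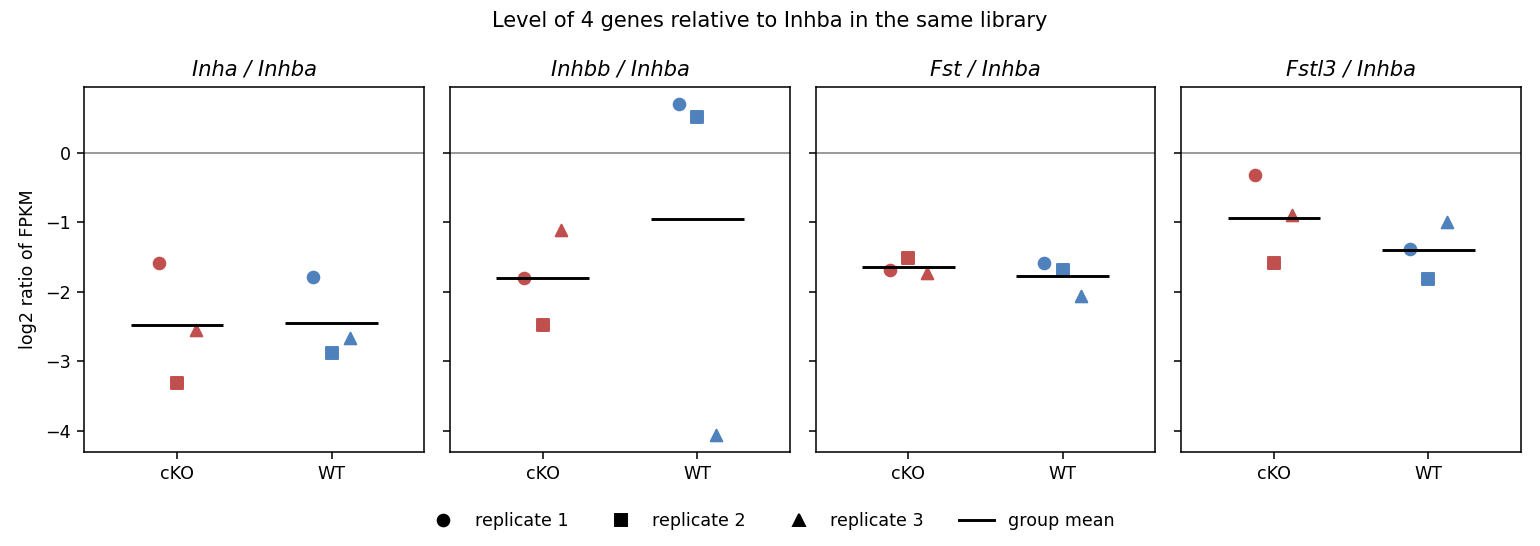
Log2 ratio of the FPKM of Inha, Inhbb, Fst and Fstl3 to that of Inhba in the same library, cKO left and WT right, with a line at the group mean. Fst stays in a narrow band, while the Inhbb ratio lies above 0 in WT replicates 1 and 2 and at -4.06 in WT replicate 3.

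Amh was the one member whose groups did not overlap. It was listed at 1.17, 0.749 and 0.685 FPKM in cKO replicates 1, 2 and 3 and at 0.447, 0.184 and 0.354 FPKM in WT replicates 1, 2 and 3. The means were 0.869 ± 0.266 FPKM in cKO and 0.328 ± 0.133 FPKM in WT libraries (SD, n = 3 each), a ratio of 2.65. All cKO values lay above all WT values, which was the case in 4.79% of all genes in the files, many of them at 0 in some libraries. Among tested genes it was the case in 6.28%, and groups did not overlap in either direction in 11.3%. The values came from 38, 21 and 23 fragments in cKO libraries, with exact Poisson 95% intervals of 26.9 to 52.2, 13.0 to 32.1 and 14.6 to 34.5. In WT libraries they came from 14, 6 and 12 fragments, with intervals of 7.65 to 23.5, 2.20 to 13.1 and 6.20 to 21.0, and the intervals cover counting error only. The intervals of the lowest cKO and the highest WT library overlap. The Sertoli marker sum of WT replicate 3, 1042 FPKM, lay above those of all cKO libraries. Clu at 475.8 FPKM and Ctsl at 230.7 FPKM made up most of it, both above each cKO library. Sox9 at 20.2 FPKM and Gata4 at 29.6 FPKM lay below each cKO library. The mean log2(FPKM + 1) over the 14 markers was 4.50 in WT replicate 3 and 4.32, 4.08 and 4.57 in cKO replicates 1, 2 and 3. The Amh value of WT replicate 3 lay between those of the other WT libraries. The part of Sertoli cell content in Amh was not tested. In the fit the log2 difference was 0.49 with an SE of 0.19 (95% interval 0.03 to 0.95), and it did not pass (limma, unadjusted p = 0.0414, adjusted p = 0.903 over 29275 genes). By exact permutation of the labels, two-sided, p was 0.1, which is the smallest value possible with 3 against 3. Sf3a2, a splicing factor gene on the same strand that ends 319 bases before Amh in the GENCODE annotation, was listed at 28.8, 28.1 and 28.4 FPKM in cKO libraries and at 49.7, 17.0 and 7.29 FPKM in WT libraries, and its part in the Amh fragments was not tested.

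Amhr2, the type II receptor that binds AMH, stood well above its ligand, at 8.83, 6.36 and 8.41 FPKM in cKO libraries and 5.80, 4.40 and 7.24 FPKM in WT libraries. Only cKO replicate 2 lay within the WT range. The log2 difference was 0.39 with an SE of 0.24 (95% interval -0.18 to 0.96, limma, adjusted p = 0.810), and it was 0.23 without WT replicate 2. Its promoter window is shown because it was the one member window with an NR5A half-site, the letters bound by the nuclear receptor SF-1, an activator of gonadal genes. It lies at chr15:102445117-102445416 on the plus strand of GRCm38.p6, and capitals mark AAGGTCA, which begins 231 bases before the start.
Amhr2: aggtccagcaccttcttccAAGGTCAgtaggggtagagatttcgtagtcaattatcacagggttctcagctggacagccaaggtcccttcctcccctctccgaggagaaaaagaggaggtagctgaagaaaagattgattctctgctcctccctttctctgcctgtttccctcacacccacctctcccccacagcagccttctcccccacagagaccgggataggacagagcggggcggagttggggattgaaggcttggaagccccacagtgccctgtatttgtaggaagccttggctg
Of the 10 members, 7 had a window in the RefSeq table, and Fst, Amh and Tgfbr3 did not. Over all 32851 mouse windows, 20.3% held an NR5A half-site, and whether SF-1 binds that of Amhr2 was not tested. Nr5a1, the gene of SF-1, had 30.1, 23.5 and 27.7 FPKM in cKO libraries and 33.4, 25.3 and 19.6 FPKM in WT libraries, and these ranges overlapped (limma, log2 difference 0.08, adjusted p = 0.963).

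Activin reaches its receptors through a type II kinase such as that of Acvr2a, which binds the ligand and activates the type I kinase of Acvr1b. Acvr1b was at 17.2, 26.6 and 10.4 FPKM in cKO libraries and at 4.90, 7.86 and 15.7 FPKM in WT libraries, and WT replicate 3 overlapped the cKO range. The difference was 0.91 with an SE of 0.45 (95% interval -0.15 to 1.96, limma, adjusted p = 0.755). Without WT replicate 3 it was 1.31 (adjusted p = 0.112), and without WT replicate 1 it was 0.56.

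Acvr2a was low, at 2.15, 3.17 and 3.25 FPKM in cKO libraries and 1.52, 2.86 and 2.99 FPKM in WT libraries. Replicate 1 was the lowest library in each group, and the groups overlapped. The fitted log2 difference was 0.17 with an SE of 0.27 (95% interval -0.45 to 0.80, limma, adjusted p = 0.920), and it was -0.04 without WT replicate 1. Acvr2a shares 446 exonic bases with Orc4 on the opposite strand, which was at 3.19 to 6.68 FPKM in cKO and 3.15 to 7.48 FPKM in WT libraries. The sources used here state no strand setting for the counting, so fragments from the shared bases could belong to either gene.

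Tgfbr3 encodes betaglycan, the co-receptor that lets inhibin bind type II activin receptors with high affinity. It had 30.0, 37.6 and 37.2 FPKM in cKO libraries and 26.4, 54.4 and 38.0 FPKM in WT libraries, with WT replicates 1 and 2 at the 2 extremes. The log2 difference was -0.12 with an SE of 0.28 (95% interval -0.78 to 0.54, limma, adjusted p = 0.950), and it was 0.13 without WT replicate 2. The interval corresponds to 0.581-fold to 1.45-fold on the scale of FPKM + 1.

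**Figure D4:**
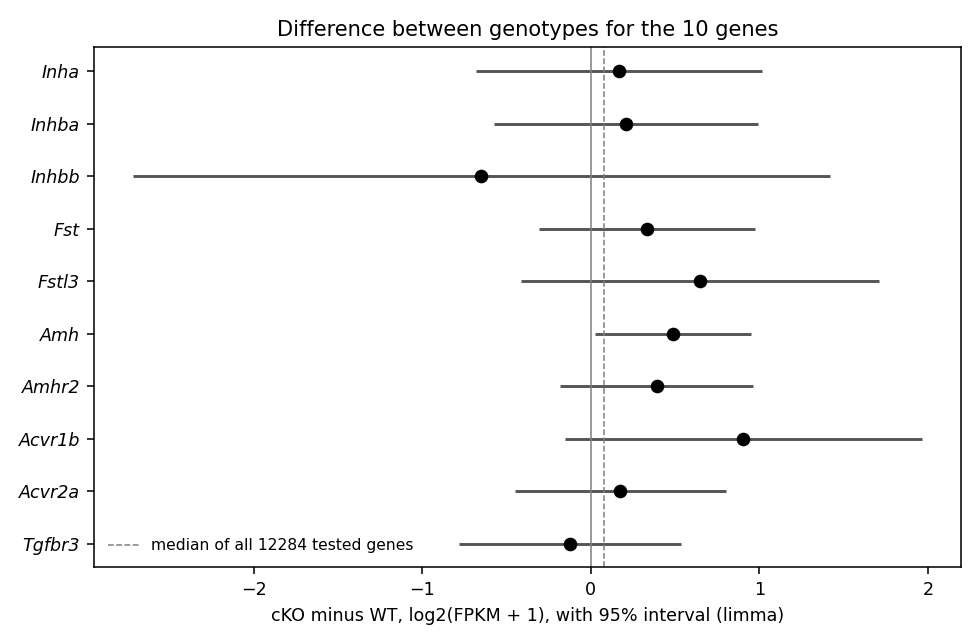
Log2 difference (cKO minus WT) of each of the 10 genes with its 95% interval from limma, the solid line at 0 and the dashed line at 0.08, the median of all tested genes. Inhbb has the widest interval, -2.72 to 1.42, and Amh, fitted over all 29275 genes, has an interval just above 0 before adjustment.

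Leaving out WT replicate 3 changed the overlap of the groups for the most members, though it reversed the sign of no member's difference. With it left out, the cKO and WT values of 6 of the 9 tested members did not overlap. Nor did those of Amh, which were already apart in the full set. Inhba, Fst, Fstl3, Amh, Amhr2 and Acvr1b were then higher in every cKO library and Inhbb lower. The same held for 41.3% of all tested genes in that setting, so the members' share is to be read against a high background. Leaving out cKO replicate 1, 2 or 3 left 1 of the 9 tested members without overlap in each case, beside 24.8%, 15.7% and 16.8% of all tested genes. Leaving out WT replicate 1 or 2 left 1 and 0 of the 9, beside 22.1% and 14.6%. Groups that do not overlap in the full set, as for Amh, cannot come to overlap when a library is left out.

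**Figure D5:**
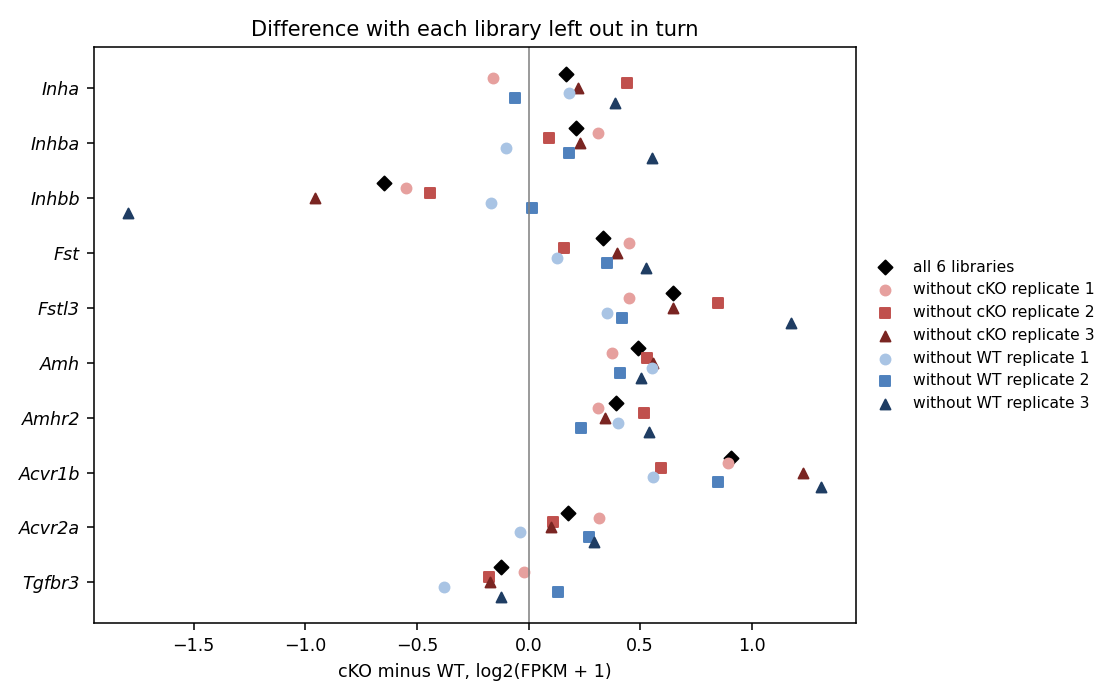
Log2 difference (cKO minus WT) of each gene with all 6 libraries (diamond) and with each library left out in turn. Inhbb runs from -1.79 without WT replicate 3 to 0.02 without WT replicate 2, and Amh stays between 0.38 and 0.56.

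Genes around the 10 members in the pathway were examined as lists. Of 27 other ligands, receptors, convertases and SMADs of the activin pathway, 22 had values and 15 were tested. Of these, 11 had a higher cKO mean and 4 a lower one, with a median log2 difference of 0.14 against 0.08 over all tested genes, and 0 passed in either direction. Furin, a convertase that cleaves activin precursors, had 44.2, 34.3 and 30.6 FPKM in cKO libraries and 20.6, 20.4 and 27.4 FPKM in WT libraries, so the groups did not overlap, which was so with cKO higher in 6.28% and in either direction in 11.3% of tested genes (limma, adjusted p = 0.650). Smad3, which carries the activin signal to the nucleus, had 20.7, 16.6 and 19.3 FPKM in cKO and 8.05, 11.1 and 21.1 FPKM in WT libraries (adjusted p = 0.792). The other type II activin receptor gene, Acvr2b, was under the filter at 0.379 to 0.696 FPKM in cKO and 0.326 to 0.614 FPKM in WT libraries, below Acvr2a in each library.

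Targets of activin and TGF-beta through SMAD2 and SMAD3 had a median log2 difference of 0.44 over 11 tested genes of 12. Of these, 8 had a higher cKO mean, 3 a lower one, and 0 passed. Smad7, an inhibitory SMAD induced by the pathway, was at 37.8, 41.3 and 27.5 FPKM in cKO and 23.5, 22.1 and 27.4 FPKM in WT libraries (limma, adjusted p = 0.731). Ltbp2, a matrix protein of the latent TGF-beta binding family, was at 101.9, 135.8 and 94.0 FPKM in cKO and 66.8, 64.7 and 83.1 FPKM in WT libraries (adjusted p = 0.653). The cKO and WT values did not overlap for 3 of the 11, Smad7, Ltbp2 and Junb, beside 11.3% of all tested genes in either direction, and Junb also responds to many other signals.

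The arm of SMAD1, SMAD5 and SMAD8 used by AMH pointed the other way, with 6 of 7 tested genes lower in cKO by mean, a median of -0.44 and 0 past the threshold. Id2, an inhibitor of differentiation and target of this arm, was at 50.9, 60.8 and 44.6 FPKM in cKO and 77.0, 98.6 and 68.8 FPKM in WT libraries, a lack of overlap with cKO lower that 5.01% of tested genes showed (limma, adjusted p = 0.652). Smad6, an inhibitory SMAD of this arm, was at 39.7, 38.2 and 36.8 FPKM in cKO and 110.9, 103.3 and 18.2 FPKM in WT libraries (adjusted p = 0.884). Id1 was at 94.5, 59.8 and 82.5 FPKM in cKO and 173.7, 160.0 and 60.0 FPKM in WT libraries (adjusted p = 0.829). For Smad6 and Id1, as for Inhbb, WT replicates 1 and 2 were the highest of all libraries. Bmpr1a, a type I receptor through which AMH signals, was at 11.3, 16.0 and 22.5 FPKM in cKO and 6.90, 18.9 and 22.1 FPKM in WT libraries (adjusted p = 0.962).

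Regulators of Amh and inhibin transcription had a median log2 difference of 0.15 over 10 tested genes of 15, with 8 higher and 2 lower means and 0 past the threshold. Sox9, which activates Amh in the fetal testis, was at 22.3, 24.1 and 35.6 FPKM in cKO and 5.97, 5.10 and 20.2 FPKM in WT libraries, without overlap (limma, adjusted p = 0.608). Gata6, a GATA factor of gonadal somatic cells, was at 4.53, 4.85 and 7.23 FPKM in cKO and 0.959, 0.890 and 3.22 FPKM in WT libraries, also without overlap (adjusted p = 0.545). These were 2 of the 10 tested genes, and 6.28% of all tested genes had each cKO value above each WT value. Gata4, which acts with SF-1 on Amh and inhibin promoters, was at 52.1, 41.5 and 55.9 FPKM in cKO and 63.1, 48.4 and 29.6 FPKM in WT libraries, and the groups overlapped (adjusted p = 0.948).

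The genes whose log2(FPKM + 1) followed a member most closely over the 6 libraries were sought among 7016 coding genes with a mean of at least 5 FPKM. For Inha they were Ngef, Sertad3 and Xab2, each with a Pearson correlation of 0.990. For Inhba they were Arhgap29 (0.998), Hspa9 (0.994) and Nlk (0.991). Hspa9, a mitochondrial chaperone, was at 123.2, 160.7 and 144.8 FPKM in cKO and 91.1, 120.1 and 178.5 FPKM in WT libraries, in the same order of libraries as Inhba. For Amh, compared with 7017 genes, they were Fxr2 (0.991), Rnf40 (0.987) and Dnajb1 (0.983). With 6 libraries and so many genes such values describe these libraries only.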

How the data were processed

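The authors deposited 1 value per gene and library for 6 libraries. The unit is not stated and was read from the deposited values as FPKM. The values followed alignment with HISAT2 2.1.0 to build mm8 and a FastQC check, per the submitters' processing notes. How fragments were counted, on which annotation and with which strand setting is not given in the sources used here. In single-exon genes with low counts, 99.1% to 99.5% of FPKM times exonic length (GENCODE M21, a later build) fell on whole fragments within 0.02 of their number; depth comes from that step, and the named build is in doubt. Symbols matched 28932 of 29275 identifiers.

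A gene was tested if 3 or more libraries reached 1 FPKM. The test used limma 3.58.1 (R 4.3.3, eBayes with trend, genotype only, two-sided, Benjamini-Hochberg, threshold 0.05) on log2(FPKM + 1), which understates changes of low genes. The fit was tested on simulated data. Python 3.11.15 drew figures and searched promoters. The members, lists and ratios were chosen with earlier results of these data known. Named genes were the 10 members, list genes with the smallest p or tied to a member, and the 3 most alike genes of Inha, Inhba and Amh. Alternatives covered pseudocounts, filters, scaling, array weights, the replicate number as a block and left-out libraries; the overlap of groups with a library left out was added after seeing the data. The values of 2 list genes are not reported here.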

Additional observations from a re-analysis of the deposited data

How the results depend on the processing

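Of 137 member differences under the alternatives, 128 kept their direction and their side of the threshold, 8 changed sign and 1 passed. The filter alternatives and the replicate block cannot change a log2 difference here, only its p, so the direction kept in those settings was fixed in advance. The sign changes were Inha with array weights (-0.13), Tgfbr3 with array weights (0.11), and left-out libraries, over which the ranges were -0.16 to 0.44 for Inha, -0.10 to 0.55 for Inhba, -1.79 to 0.017 for Inhbb, -0.038 to 0.31 for Acvr2a and -0.38 to 0.13 for Tgfbr3. The members past the threshold numbered 0 in each setting but 1, Inhbb without WT replicate 3. Acvr2a could not be tested under the stricter filter of 5 FPKM, and Amh, fitted over all genes, has no value under either filter alternative. The pseudocount set the size for Amh, from 0.14 at 5 to 1.20 at 0.1, and its adjusted p stayed at or above 0.0798. Median-ratio scaling and quantile normalization left every member's sign. With a library left out, the ratios to Inhba differed by -0.48 to 0.38 for Inha, -2.40 to -0.022 for Inhbb, -0.0075 to 0.23 for Fst and 0.16 to 0.79 for Fstl3. The count of genes past the threshold, 2 in limma, was 0 with no filter and 0 with the replicate block, where 1323 and 963 genes had an unadjusted p under 0.05, and 0 to 478 with a library left out. The replicate numbers did not pair the libraries: deviations of same-numbered libraries correlated at 0.14, 0.03 and -0.21, cKO replicates 2 and 3 did not correlate best with their own number, and the block put no member past the threshold. The cause of these shifts was not tested. Depth limits Amh, which rests on 6 to 38 fragments.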
